A study of Chlorocebus sabaeus with 6 samples.

Results

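Transcript levels of the nuclear receptor superfamily were compared between COS7 cells lacking ATL2 and ATL3 by knockout (DKO, 3 samples) and wild-type COS7 cells (WT, 3 samples). COS7 is a fibroblast-like line from African green monkey kidney (Chlorocebus sabaeus), immortalised with SV40, and the genes knocked out code for atlastins, GTPases that join tubules of the endoplasmic reticulum. The members were 44 receptor genes chosen by symbol from the superfamily, of which 39 had a row among the 18050 genes of the deposited table. ESRRB, NR2E1, NR0B1, NR0B2 and RXRG are not analysed here. All samples were grown in DMEM with fetal bovine serum, and the labels name no added hormone. They do not say how the knockout was made, how many clones the DKO samples stand for, or whether the samples of a group were separate cultures. What the p-values measure is therefore the spread among these libraries alone, and it may be technical.

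Nuclear receptors are transcription factors that bind DNA through a zinc finger domain and, for many of them, small lipophilic ligands through a second domain. Steroid receptors are held by HSP90 and its cochaperones until hormone binds, whereas receptors for retinoids, thyroid hormone, vitamin D, fatty acids and oxysterols mostly act as heterodimers with a retinoid X receptor (RXR). Ligand exchanges corepressors such as NCOR1 for coactivators such as the NCOA proteins, and the orphan receptors have no established hormone. In kidney, HNF4A marks the proximal tubule and the mineralocorticoid receptor NR3C2 acts in the distal nephron.

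The DKO libraries held 14197344 to 15693049 estimated counts and the WT libraries 14923619 to 15127039. ATL2 averaged 5.94 ± 1.9 FPKM in DKO and 30.6 ± 1.5 FPKM in WT, and ATL3 averaged 4.88 ± 1.25 FPKM in DKO and 35.8 ± 1.36 FPKM in WT (SD, n = 3 each). FPKM are counts scaled to transcript length and library depth. DKO replicate 3 stood apart from the other DKO samples on the second principal component, which held 9.41% of the variance. Among 13094 genes tested, 27.8% differed by over 1.5-fold in FPKM between DKO replicate 3 and the mean of DKO replicates 1 and 2, and 8 of 29 tested receptor genes did so (27.6%). Results are therefore also given without it. Of the fibroblast-like markers, VIM was abundant in every sample while THY1 had 0 counts and COL1A2, COL3A1 and ACTA2 stayed under 1 FPKM in every sample. Summed FPKM of the 10 fibroblast-like markers was 1530 to 1580 in DKO and 3360 to 3450 in WT. The markers did not move together. In the edgeR test described below, 2 of the 6 tested were higher and 3 lower in DKO (83.3% called, against 45.5% of all genes tested). The 7 measured markers of kidney tubule epithelium summed to 57.1 to 68.2 FPKM in DKO and 104 to 105 FPKM in WT. Of the 5 tested, 1 was higher and 4 were lower in DKO (100% called). The 6 measured endothelial markers summed to 15.2 to 15.8 FPKM in DKO, nearly all of it TEK, and to 0.34 to 0.43 FPKM in WT, and the other 5 stayed under 1 FPKM in every sample. The 4 measured immune markers summed to 23.7 to 36.8 FPKM in DKO and 20.9 to 23.6 FPKM in WT, with PTPRC and CD3E under 1 FPKM throughout. The 7 markers of reproductive stroma and gonad summed to 6.11 to 7.2 FPKM in DKO and 4.85 to 5.23 FPKM in WT, with 5 of them under 1 FPKM in every sample. The part of these lists in the results below was not tested, and in bulk RNA a change in the number of expressing cells and a change in RNA per cell cannot be told apart.

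Of the 39 receptor genes, 29 passed the filter on low counts, and edgeR's quasi-likelihood test called 12 of them at an adjusted p below 0.05, 7 higher and 5 lower in DKO. That is 41.4% of those tested, against 45.5% of all genes tested (23.3% higher and 22.2% lower), so the share of receptors called lay near that background. The median log2 fold change (DKO over WT) was -0.02 over these receptors and -0.01 over all genes. The called genes were PGR, NR3C1, NR4A1, NR4A2, NR4A3, VDR and RARG, which were higher in DKO, and PPARG, NR2F2, NR6A1, ESRRG and NR1H3, which were lower. Of the 29 tested, 11 were called and also differed by 1 or more on the log2 scale (all the called genes but NR2F2), against 21.9% of all genes tested (2872 of 13094). This share lay above that of all genes. The members were chosen with earlier results of these data known, so it is not read as a trait of the family. Without DKO replicate 3, 22 of 30 tested receptors were called (73.3%, against 74.6% of all genes), 10 higher and 12 lower (36.0% and 38.6% of all genes), and these included all 12 in the same direction. FPKM of the DKO and WT samples did not overlap for 17 of the 29 (58.6%), against 63.2% of all genes tested.

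**Figure D1:**
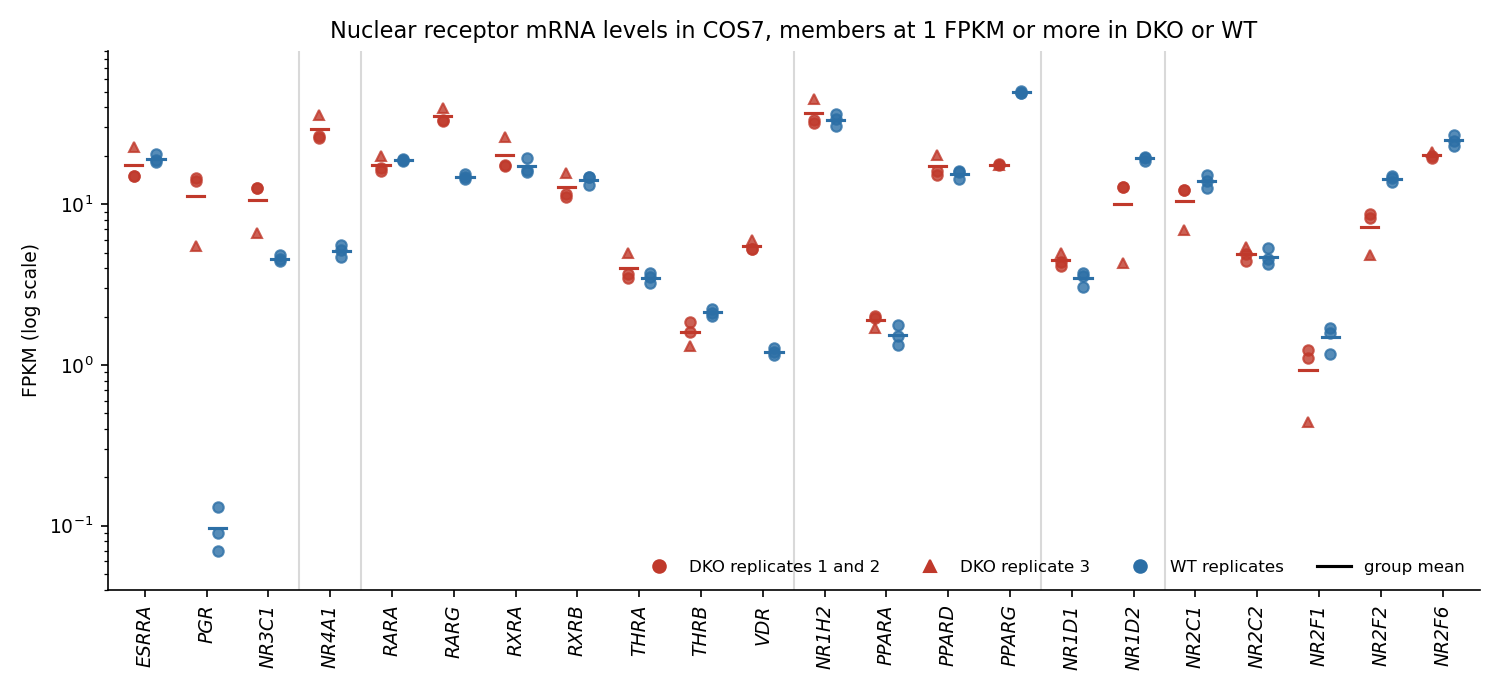
FPKM on a log axis of the 22 receptor genes with a group mean of at least 1 FPKM, grouped by role, with DKO samples (red, replicate 3 as a triangle) left of WT samples (blue) and bars at the group means. PGR is at 5.5 to 14.45 FPKM in DKO and at 0.07 to 0.13 FPKM in WT, and PPARG is at 17.45 to 17.66 FPKM in DKO and at 48.97 to 50.78 FPKM in WT.

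The order of levels within the family differed at the top. The highest mean levels in DKO were those of NR1H2 (36.9 ± 7.21 FPKM), RARG (35.1 ± 3.74), NR4A1 (29.4 ± 5.67), RXRA (20.2 ± 5.02) and NR2F6 (20.1 ± 0.892), each as mean FPKM ± SD (n = 3). In WT they were those of PPARG (49.7 ± 0.968 FPKM), NR1H2 (33.6 ± 2.93), NR2F6 (25 ± 1.98), NR1D2 (19.3 ± 0.591) and ESRRA (19.2 ± 1.09). In DKO the means of NR1H2 and RARG lay within an SD of each other, as did those of RXRA and NR2F6, and in WT those of NR1D2 and ESRRA. Between 21 and 22 receptors reached 1 FPKM in each DKO sample and 21 in each WT sample, and the summed FPKM of the family was 288 to 318 in DKO and 280 to 290 in WT.

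Among the steroid receptors, the progesterone receptor gene and the glucocorticoid receptor gene were the ones called, and both were higher in DKO. PGR, which encodes the receptor for progesterone and is itself a classical estrogen receptor target in the uterus and breast, was at 13.92, 14.45 and 5.5 FPKM in DKO replicates 1, 2 and 3, against 0.07, 0.09 and 0.13 FPKM in the WT samples. The estimated counts behind these levels were 2771, 2853 and 1210 in DKO and 14, 18 and 28 in WT. Every DKO sample lay far above every WT sample, and DKO replicate 3 was at 38.8% of the mean of the other DKO samples. PGR had a log2 fold change (DKO over WT) of 6.90 ± 0.48 (SE; edgeR adjusted p = 5.67e-05), or 119-fold, and of 7.21 (SE 0.10) without DKO replicate 3. Its rank by mean FPKM among the 39 receptors was 11 in DKO and 30 in WT.

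NR3C1, the glucocorticoid receptor gene, was at 12.54, 12.6 and 6.6 FPKM in DKO and at 4.53, 4.44 and 4.8 FPKM in WT. Its groups did not overlap, with DKO replicate 3 again the lowest DKO sample, and the log2 change equalled 1.22 ± 0.23 (SE; edgeR adjusted p = 0.00475) with all samples and 1.45 (SE 0.06) without DKO replicate 3. PGR made up 45 to 52.9% of the summed FPKM of PGR, NR3C1, NR3C2, ESR1 and ESR2 in the DKO samples and 1.47 to 2.55% in the WT samples, and NR3C1 46.1 to 54.1% in DKO and 94.1 to 95.4% in WT. The sum of these 5 genes was 12.21 to 27.34 FPKM in DKO and 4.66 to 5.1 FPKM in WT.

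The remaining steroid receptor genes were scarce in both genotypes. NR3C2, the mineralocorticoid receptor gene, had 11, 14 and 8 counts in DKO and 3, 4 and 4 in WT, and fell under the filter with all samples. Without DKO replicate 3 it passed the filter and was called higher (log2 fold change 1.82, SE 0.50, edgeR adjusted p = 0.00122). Its summed counts, 33 in DKO and 11 in WT, gave a ratio of 3.06 (exact 95% counting interval 1.51 to 6.71) after scaling to library totals, and its groups did not overlap (exact two-sided permutation p = 0.1, the smallest that 3 samples against 3 allow). Intervals of this kind cover counting error only. A fold given below as "at least" sets the group with 0 counts at a floor of 3 counts. It takes the count of the other group as observed, without its counting error, and is not a confidence limit. ESR1, which encodes estrogen receptor alpha, had 3, 2 and 2 counts in DKO and 0 in every WT sample, at least 2.38-fold higher against a floor of 3 counts over the group (exact two-sided permutation p = 0.1). ESR2, estrogen receptor beta, had 1, 4 and 0 counts in DKO and 5, 4 and 6 in WT (exact two-sided permutation p = 0.2). In RefSeq's mChlSab1.0.hap1 annotation the spans of ESR1 and SYNE1, and of ESR2 and SYNE2, overlap, as do those of ESRRA and TRMT112. No source used here says whether counting used the strand, and without it the reads of such pairs cannot be told apart.

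The estrogen-related receptors are orphan receptors that share the coactivator PGC-1 and regulate mitochondrial genes. ESRRA had 14.95, 14.98 and 22.81 FPKM in DKO and 18.76, 20.41 and 18.34 FPKM in WT. DKO replicates 1 and 2 lay below every WT sample and DKO replicate 3 above, so that the log2 fold change (DKO over WT) equalled -0.05 ± 0.22 (SE; edgeR adjusted p = 0.859) with all samples and -0.34 (SE 0.08, edgeR adjusted p = 0.000192) without replicate 3. ESRRG fell to 0.08, 0.09 and 0.11 FPKM in DKO, against 0.66, 0.74 and 0.66 FPKM in WT. Its 6, 7 and 5 counts in DKO and 50, 53 and 53 counts in WT gave a log2 change of -3.02 ± 0.21 (SE; edgeR adjusted p = 5.36e-05).

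**Figure D2:**
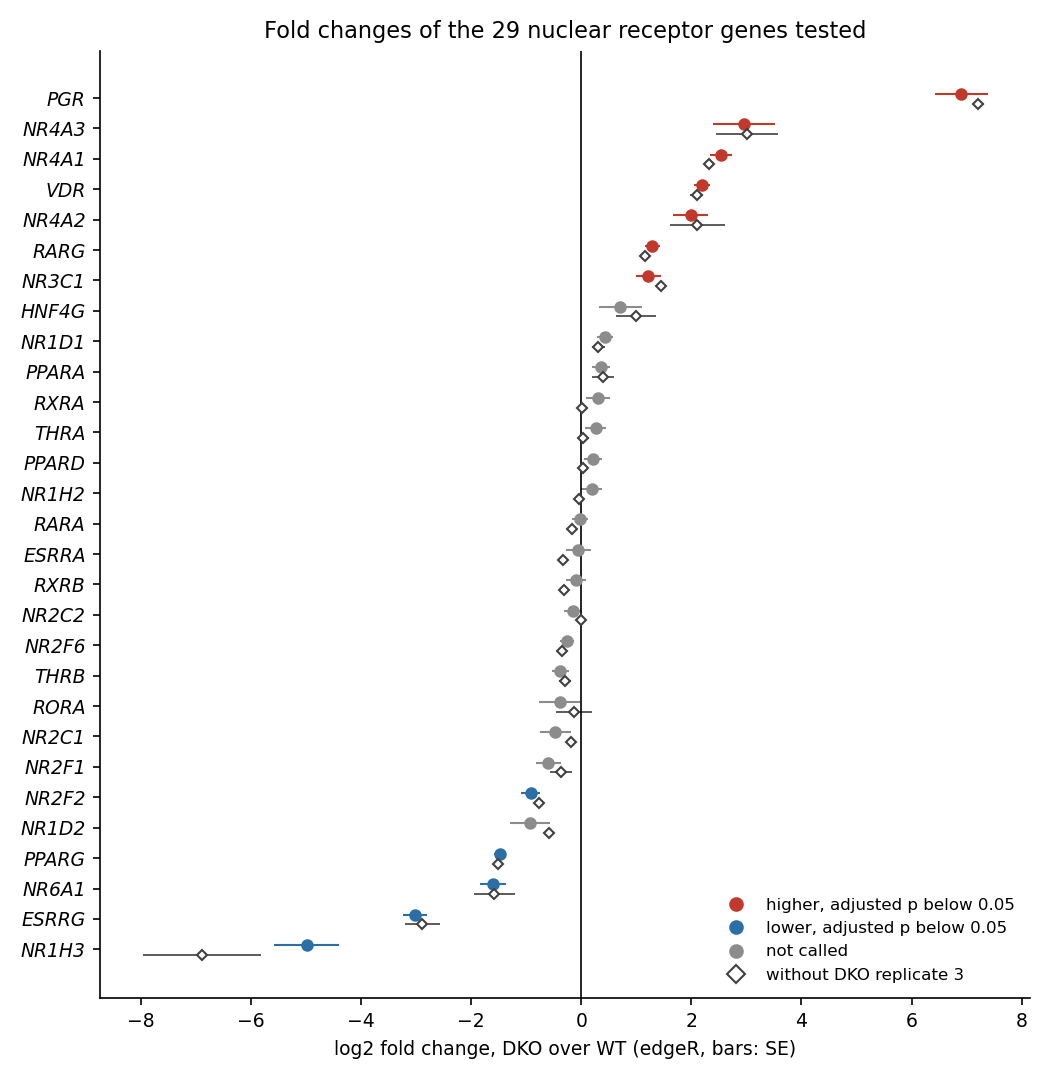
Log2 fold change (DKO over WT, edgeR, bars are SE) of the 29 receptor genes tested, with all samples (filled circles, red for higher, blue for lower, grey for not called) and without DKO replicate 3 (open diamonds). PGR lies at 6.90, the 3 NR4A genes between 1.99 and 2.96, and NR1H3 at -4.99 with all samples and -6.89 without DKO replicate 3.

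All 3 genes of the NR4A subfamily, orphan receptors that are induced as immediate early genes by many stimuli, were higher in DKO. NR4A1 (NUR77) was at 25.93, 26.41 and 35.98 FPKM in DKO and at 5.54, 5.21 and 4.68 FPKM in WT. Here DKO replicate 3 was the highest sample, and the log2 fold change (DKO over WT) equalled 2.54 ± 0.20 (SE; edgeR adjusted p = 8.3e-05), or 5.82-fold. NR4A2 (NURR1) had 15, 13 and 11 counts in DKO and 3, 3 and 4 in WT, and the log2 fold change, at 1.99 (SE 0.32), passed the test (edgeR adjusted p = 0.00221). NR4A3 (NOR1) had 14, 18 and 15 counts in DKO and 4, 0 and 2 in WT, a log2 change of 2.96 ± 0.56 (SE; edgeR adjusted p = 0.00479) and of 3.87 without WT replicate 1. NR4A1 carried 98.4 to 99.1% of the subfamily's summed FPKM in DKO and 98.2 to 99% in WT, so the subfamily total, 26.36 to 36.31 FPKM in DKO and 4.76 to 5.64 FPKM in WT, was in effect that of NR4A1.

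NR6A1, which encodes germ cell nuclear factor, a repressor of pluripotency genes in mouse embryos, was lower in DKO with 10, 6 and 8 counts, against 26, 24 and 27 in WT. Its log2 fold change (DKO over WT) equalled -1.60 ± 0.24 (SE; edgeR adjusted p = 0.00166), and no DKO sample reached the WT range. The gonadal and liver receptors next to it in classification were at or near 0. NR5A1 (SF-1) had 1 count in DKO and 1 in WT over all libraries, and NR5A2 (LRH-1) had 3 in DKO and 7 in WT (exact two-sided permutation p = 0.5).

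Among the receptors for retinoic acid, RARG was called and was higher in DKO. RARG was at 32.78, 33.18 and 39.45 FPKM in DKO and at 14.78, 15.45 and 14.27 FPKM in WT, a log2 change of 1.29 ± 0.14 (SE; edgeR adjusted p = 0.000329). RARA was at 16.84, 16.06 and 20 FPKM in DKO and at 18.44, 19.14 and 18.84 FPKM in WT (log2 fold change -0.02, SE 0.14, edgeR adjusted p = 0.918, and -0.16, edgeR adjusted p = 0.0216, without DKO replicate 3). RARG thus held 66 to 67.3% of the summed FPKM of the 3 retinoic acid receptors in DKO and 42.9 to 44.4% in WT, and RARA 32.6 to 33.9% in DKO and 55 to 56.6% in WT. RARB, itself a retinoic acid target, had 2, 1 and 2 counts in DKO and 6, 10 and 6 in WT. With sums of 5 in DKO and 22 in WT its ratio was 0.232 (exact 95% counting interval 0.0686 to 0.627), and its groups did not overlap (exact two-sided permutation p = 0.1).

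The RXR genes did not pass the test with all samples. RXRA was at 17.49, 17.16 and 26.02 FPKM in DKO and at 19.45, 16.23 and 15.84 FPKM in WT, with overlapping groups (log2 fold change 0.30, SE 0.22, edgeR adjusted p = 0.305). RXRB was at 11.56, 11.14 and 15.71 FPKM in DKO and at 13.17, 14.7 and 14.79 FPKM in WT (log2 fold change -0.10, SE 0.18, edgeR adjusted p = 0.683), and at -0.32 (SE 0.08, edgeR adjusted p = 0.000168) without DKO replicate 3. The sum of both genes was 28.3 to 41.73 FPKM in DKO and 30.63 to 32.62 FPKM in WT, with DKO replicate 3 above the WT range and the other DKO samples below it.

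VDR, the vitamin D receptor gene, was the other called member of the hormone-binding RXR partners. It was at 5.24, 5.27 and 6.02 FPKM in DKO and at 1.27, 1.15 and 1.2 FPKM in WT, with DKO replicate 3 close to the other DKO samples. The log2 fold change (DKO over WT) equalled 2.19 ± 0.14 (SE; edgeR adjusted p = 3.68e-05), or 4.57-fold. The thyroid hormone receptor genes were not called. THRA was at 3.68, 3.46 and 4.96 FPKM in DKO and at 3.22, 3.72 and 3.5 FPKM in WT (log2 fold change 0.26, SE 0.19, edgeR adjusted p = 0.301). THRB was at 1.86, 1.61 and 1.32 FPKM in DKO and at 2.02, 2.11 and 2.23 FPKM in WT (log2 fold change -0.38, SE 0.15, edgeR adjusted p = 0.0701), and it was called lower without DKO replicate 3 (-0.29, edgeR adjusted p = 0.0205) and without DKO replicate 1 (-0.50, edgeR adjusted p = 0.0477).

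**Figure D3:**
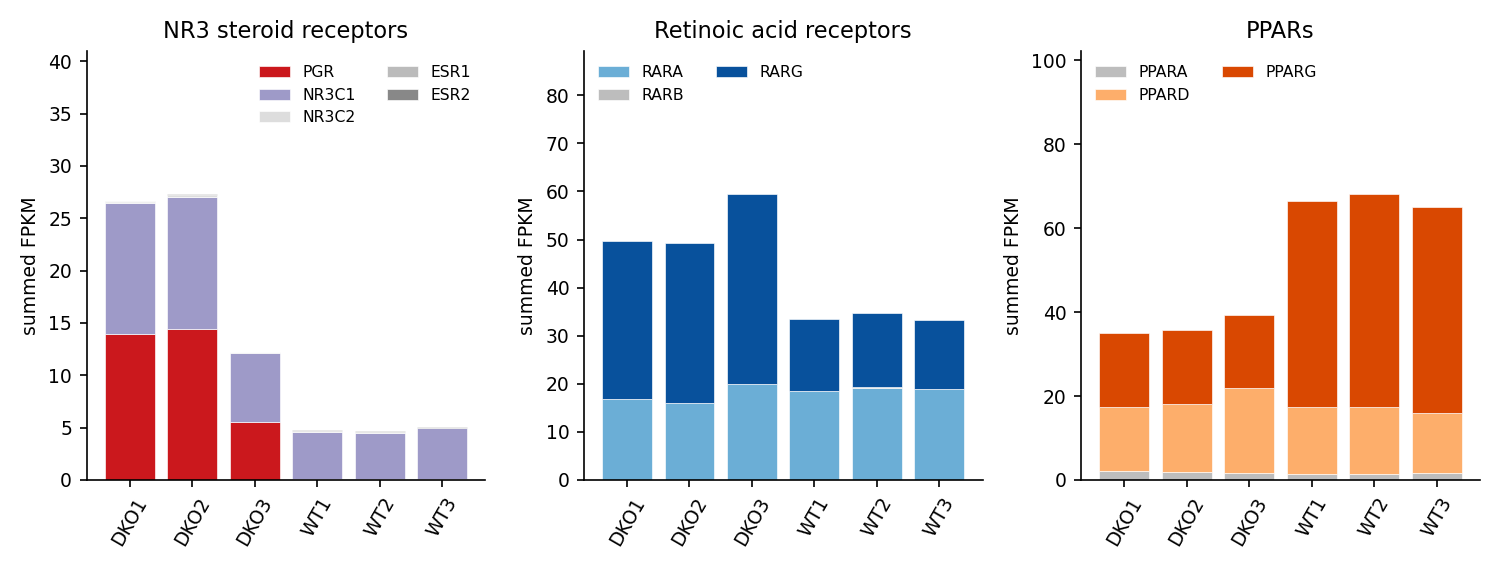
Stacked FPKM of the NR3 steroid receptor genes, the retinoic acid receptor genes and the PPAR genes in each DKO sample (left bars) and WT sample (right bars). PGR and NR3C1 form the DKO bars of the steroid group, RARG exceeds RARA in DKO, and the PPAR bars are lower in DKO, where PPARG holds 44.3 to 50.5% of the sum, against 74 to 75.4% in WT.

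Of the lipid-sensing receptors, PPARG and NR1H3 were called and both were lower in DKO. PPARG encodes the fatty acid sensor that drives adipocyte differentiation, and had the highest mean FPKM of the family in WT. It was at 17.66, 17.59 and 17.45 FPKM in DKO and at 49.28, 50.78 and 48.97 FPKM in WT. The samples of each genotype lay close together, DKO replicate 3 included, and the log2 change equalled -1.48 ± 0.10 (SE; edgeR adjusted p = 5.07e-05), 2.79-fold lower. PPARD was at 15.26, 16.1 and 20.27 FPKM in DKO and at 15.97, 15.91 and 14.24 FPKM in WT (log2 fold change 0.21, SE 0.16, edgeR adjusted p = 0.317). PPARA, the regulator of fatty acid oxidation in liver, was at 2.02, 1.96 and 1.7 FPKM in DKO and at 1.34, 1.52 and 1.76 FPKM in WT (log2 fold change 0.36, SE 0.16, edgeR adjusted p = 0.111). The DKO and WT samples overlapped in FPKM for PPARD and for PPARA, but in depth-scaled counts every DKO sample was higher for PPARA. The summed FPKM of the 3 PPAR genes was 34.94 to 39.42 in DKO and 64.97 to 68.21 in WT, and PPARD held 43.7 to 51.4% of it in DKO and 21.9 to 24% in WT.

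The liver X receptors sense oxysterols and induce cholesterol efflux genes. NR1H3 (LXR alpha) had 0, 0 and 1 counts in DKO and 16, 14 and 15 in WT. The ratio of WT to DKO from the summed counts was 44.1 (exact 95% counting interval 7.53 to 1780), and the fitted log2 fold change was -4.99 (edgeR adjusted p = 0.000543), or -6.89 without DKO replicate 3, which held the only DKO count. In WT the gene was already at no more than 0.59 FPKM. NR1H2 (LXR beta) was at 33.45, 32.02 and 45.17 FPKM in DKO and at 36.35, 33.84 and 30.5 FPKM in WT, with overlapping groups (log2 fold change 0.19, SE 0.19, edgeR adjusted p = 0.44). NR1H2 accordingly held 99.9 to 100% of the summed FPKM of both genes in DKO and 98.3 to 98.6% in WT. NR1H4, the bile acid receptor FXR, had 0 counts in DKO and 1 in WT.

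HNF4A, a master regulator of liver and proximal tubule epithelium, had 0 counts in every DKO sample and 6, 10 and 8 in WT. This puts it at least 7.84-fold lower in DKO against the floor of 3 counts over the group (exact two-sided permutation p = 0.1), at a WT level of 0.14 to 0.2 FPKM. Its relative HNF4G had 19, 19 and 9 counts in DKO and 12, 11 and 7 in WT. The groups overlapped (log2 fold change 0.71, SE 0.39, edgeR adjusted p = 0.176), and without DKO replicate 3 the value was 1.00 (edgeR adjusted p = 0.0123).

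The REV-ERB and ROR receptors act in the circadian clock, REV-ERBs as repressors and RORs as activators of shared sites. NR1D1 (REV-ERB alpha) was at 4.38, 4.14 and 4.96 FPKM in DKO and at 3.72, 3.56 and 3.07 FPKM in WT. All DKO samples were above all WT samples, but the log2 fold change of 0.43 (SE 0.15) missed the threshold (edgeR adjusted p = 0.0575), and without DKO replicate 3 it was 0.31 (edgeR adjusted p = 0.0214). NR1D2 (REV-ERB beta) was at 12.83, 12.79 and 4.32 FPKM in DKO and at 19.4, 18.62 and 19.78 FPKM in WT. Every DKO sample lay below the WT samples, with DKO replicate 3 at 33.7% of the mean of the other DKO samples. The log2 fold change was -0.93 with a wide error (SE 0.36, edgeR adjusted p = 0.0721), and -0.58 (SE 0.06, edgeR adjusted p = 6.13e-13) without that sample. RORA had 19, 19 and 10 counts in DKO and 14, 23 and 29 in WT (log2 fold change -0.39, SE 0.37, edgeR adjusted p = 0.422), and RORB had 14 counts in DKO and 6 in WT (exact two-sided permutation p = 0.2).

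NR2F2 was the called member among the COUP transcription factors and the testicular receptors. NR2F2 encodes COUP-TFII, a regulator of venous and mesenchymal identity in mouse that also acts in the uterine stroma. It was at 8.21, 8.75 and 4.83 FPKM in DKO and at 13.66, 14.47 and 14.96 FPKM in WT, without overlap. The log2 fold change (DKO over WT) equalled -0.92 ± 0.17 (SE; edgeR adjusted p = 0.00413) with all samples and -0.77 (SE 0.08) without DKO replicate 3. NR2F1 (COUP-TFI) was at 1.1, 1.24 and 0.44 FPKM in DKO and at 1.17, 1.7 and 1.59 FPKM in WT (log2 fold change -0.60, SE 0.23, edgeR adjusted p = 0.074). Its groups overlapped in FPKM, but in depth-scaled counts every DKO sample was lower. NR2F6 was at 19.81, 19.43 and 21.13 FPKM in DKO and at 24.77, 27.03 and 23.09 FPKM in WT (log2 fold change -0.26, SE 0.12, edgeR adjusted p = 0.127), and at -0.35 (edgeR adjusted p = 4.02e-05) without DKO replicate 3. The testicular receptor gene NR2C1 was at 12.19, 12.17 and 6.91 FPKM in DKO and at 14, 12.61 and 15.17 FPKM in WT (log2 fold change -0.47, SE 0.28, edgeR adjusted p = 0.217, and -0.19, edgeR adjusted p = 0.0233, without DKO replicate 3). Its relative NR2C2 was at 4.91, 4.43 and 5.38 FPKM in DKO and at 4.24, 4.57 and 5.34 FPKM in WT (log2 fold change -0.15, SE 0.16, edgeR adjusted p = 0.497). Here FPKM and counts differed in direction. The NR2C2 mean was 4.91 FPKM in DKO and 4.72 FPKM in WT, and DKO replicate 3 had the fewest counts (385) but the highest FPKM. NR2E3, a photoreceptor gene, had 2 counts in DKO and 1 in WT.

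**Figure D4:**
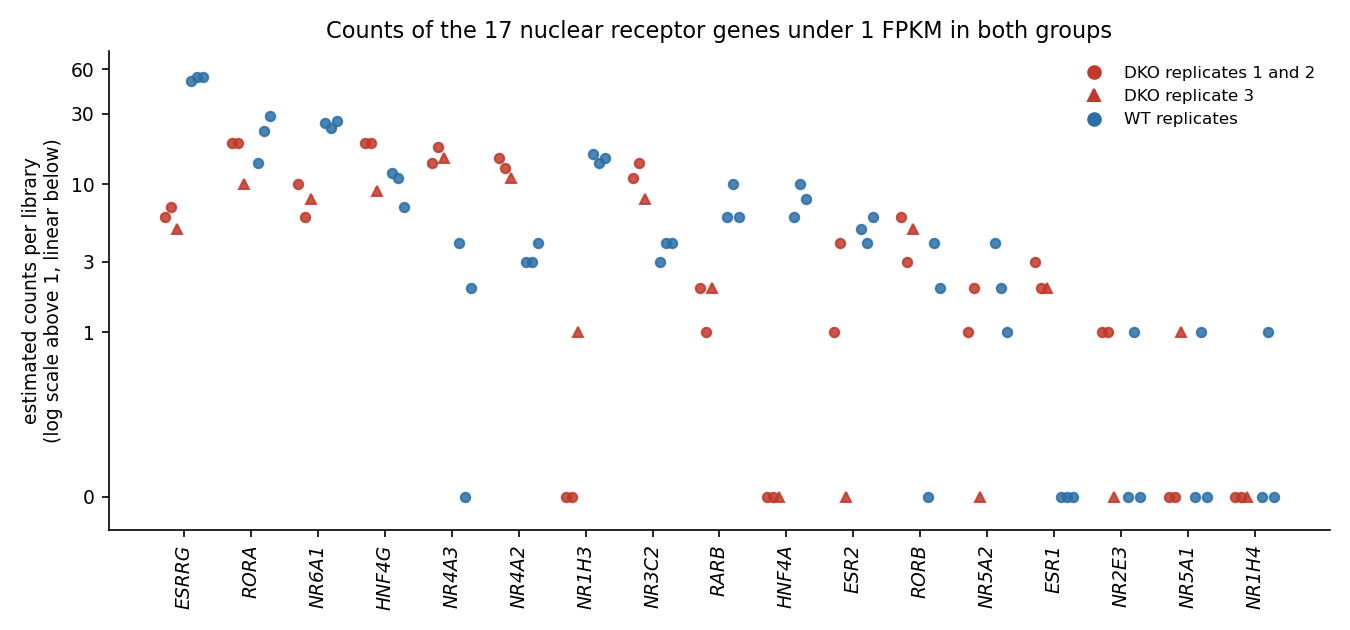
Estimated counts per library of the 17 receptor genes under 1 FPKM in both groups, ordered by total count, with DKO samples (red, replicate 3 as a triangle) left of WT samples (blue), on an axis that is linear below 1 and logarithmic above. ESRRG, NR6A1, NR1H3, RARB and HNF4A lie lower in every DKO sample, and NR4A2, NR4A3, NR3C2 and ESR1 lie higher.

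Of the 10 receptors under the filter, 4 had groups that did not overlap in depth-scaled counts, ESR1 and NR3C2 higher and RARB and HNF4A lower in DKO. Among all 4692 genes below the filter with any count, 23.9% did not overlap (10.1% higher and 13.7% lower in DKO). In the edgeR fit without a filter, which called 16 of 39 receptors and 35.6% of all genes, these 4 were called and the other 6 were not.

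Chromosomal position was examined for the 12 called receptors, through the nearest gene of the table on each side in the RefSeq gene order. Of these 24 neighbours 17 were tested and 10 were called (58.8%, against 45.5% of all genes), 8 in the direction of the receptor and 2 in the other. How often adjacent called genes share a direction over all genes was not computed, and an effect of position was not tested. Both neighbours of PGR rose. ARHGAP42, a GTPase-activating protein gene, averaged 4.07 ± 1.16 FPKM in DKO and 1.24 ± 0.186 FPKM in WT (log2 fold change 1.76, SE 0.23, edgeR adjusted p = 0.000975). TRPC6, a cation channel gene, had 41 counts in DKO and 3 in WT, a ratio of 13.9 (exact 95% counting interval 4.45 to 70.4, edgeR adjusted p = 0.000324). MCTP2, a neighbour of NR2F2, had 0 counts in DKO and 315 in WT, at least 103-fold lower, and OLFML2A beside NR6A1 fell to 0.03 ± 0.01 FPKM in DKO, against 1.15 ± 0.191 FPKM in WT. In contrast, ACP2, a lysosomal phosphatase gene whose span overlaps that of NR1H3 in the RefSeq annotation, rose (log2 fold change 1.35, SE 0.17, edgeR adjusted p = 0.000753) while NR1H3 fell. ITGB7 beside RARG fell (log2 fold change -1.91, SE 0.29, edgeR adjusted p = 0.00176) while RARG rose. NR1D2, THRB and RARB are consecutive in that order, as are NR1D1 and THRA.

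Genes that work with the receptors were read from lists by role. The share of all genes called also moved with the sample left out. It was 74.6% without DKO replicate 3 (36.0% higher and 38.6% lower). Shifts in the list counts below when a sample is left out are therefore not read as traits of the lists. Of 12 tested chaperones of the steroid receptor complex, 5 were higher and 1 lower in DKO (50%, median log2 fold change 0.30, against 45.5% and -0.01 over all genes). DNAJB1 rose to 140 ± 1.35 FPKM in DKO, against 93.4 ± 0.343 FPKM in WT, and DNAJA1 (log2 fold change 0.70, SE 0.11) and HSPA4 (log2 fold change 0.67, SE 0.15) also rose. The DNAJ genes encode HSP70 cochaperones and HSPA4 an HSP110-type nucleotide exchange factor. FKBP5, an HSP90 cochaperone and a glucocorticoid receptor target, fell to 27.4 ± 4.68 FPKM in DKO, against 41.9 ± 1.31 FPKM in WT. Without DKO replicate 1, WT replicate 1 or WT replicate 2, 3 chaperones were higher. Without DKO replicate 3 there were 7 higher and 1 lower (66.7%, against 74.6% of all genes).

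Of 18 tested coactivators, 7 were higher and 5 lower (66.7%, median 0.06). NCOA3, a p160 coactivator, fell to 8.07 ± 1.35 FPKM in DKO, against 15.5 ± 0.432 FPKM in WT (log2 fold change -0.91, SE 0.13). PPARGC1B, which encodes the PGC-1 beta coactivator (log2 fold change -0.72, SE 0.12), and the acetyltransferase gene CREBBP (log2 fold change -0.47, SE 0.09) fell too. SRA1, a steroid receptor RNA activator gene, rose (log2 fold change 1.13, SE 0.17). Without any 1 of the WT samples 3 coactivators were higher, and without DKO replicate 1 or 2 there were 4. Without DKO replicate 3 there were 8 higher and 9 lower (94.4%, against 74.6% of all genes).

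Of 10 tested corepressors, 4 were lower and 1 higher (50%, median -0.33). Without DKO replicate 3 there were 5 lower and 2 higher (70%, against 74.6% of all genes). HR, a corepressor of the thyroid hormone and vitamin D receptors, fell to 0.36 ± 0.0361 FPKM in DKO, against 7.89 ± 0.335 FPKM in WT (log2 fold change -4.40, SE 0.17, edgeR adjusted p = 6.65e-06). NRIP1 (RIP140), an estrogen receptor cofactor, fell to 3.28 ± 1.16 FPKM in DKO, against 9.6 ± 0.465 FPKM in WT (log2 fold change -1.52, SE 0.25), and SIN3A fell (log2 fold change -0.65, SE 0.09). HDAC3, the deacetylase of the NCOR complexes, rose (log2 fold change 0.83, SE 0.16), while NCOR1 was not called.

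**Figure D5:**
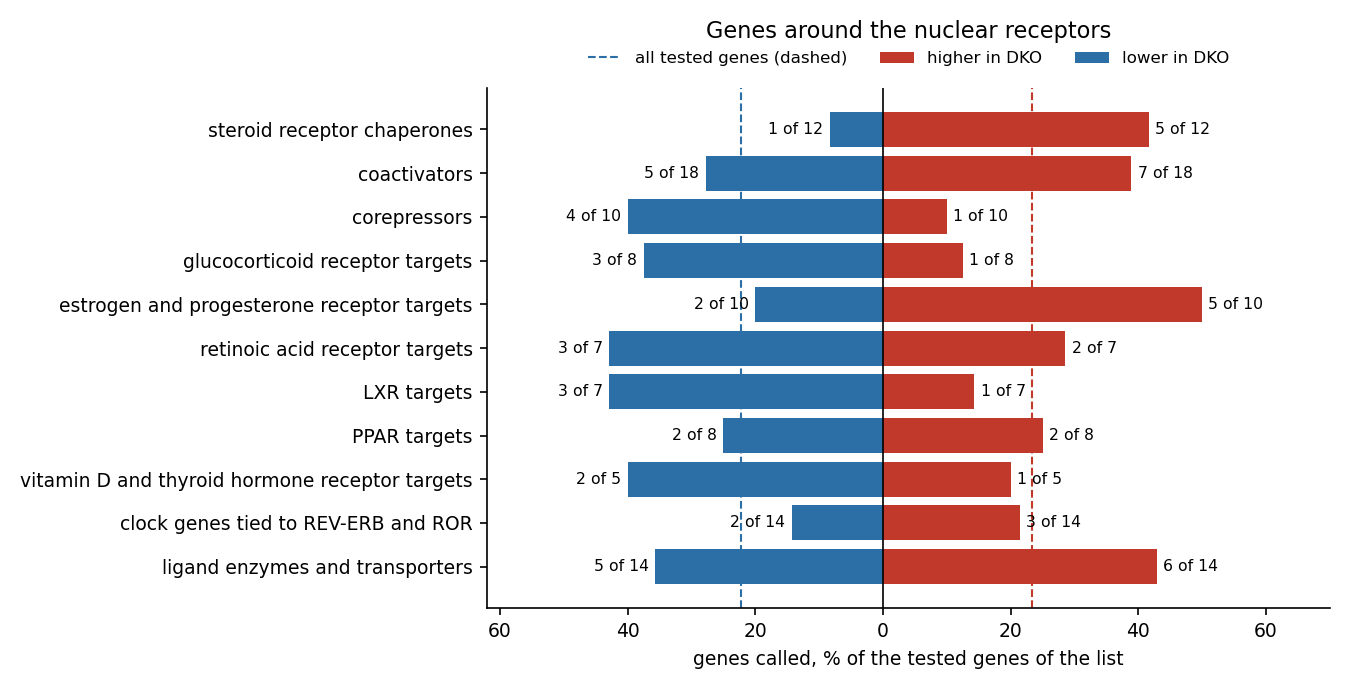
Share of the tested genes of each list that was called higher (red, right) or lower (blue, left) in DKO, with the number of genes beside each bar and dashed lines at the 23.3% and 22.2% of all tested genes. Every list held calls in both directions, and each rests on 5 to 18 tested genes.

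Textbook targets of the receptors went both ways within each list. Of 8 tested glucocorticoid receptor targets, 1 was higher and 3 lower (50%, median 0.03). TSC22D3 (GILZ) fell to 2.54 ± 0.286 FPKM in DKO, against 6.32 ± 0.576 FPKM in WT (log2 fold change -1.27, SE 0.14), ERRFI1 fell to 4.78 ± 0.825 FPKM in DKO, against 19.7 ± 1.96 FPKM in WT, FKBP5 fell as given above, and the kinase gene SGK1 rose to 16.5 ± 0.642 FPKM in DKO, against 6.62 ± 0.214 FPKM in WT (log2 fold change 1.37, SE 0.11). PER1, KLF9, DUSP1 and NFKBIA were not called. Of 10 tested estrogen and progesterone receptor targets, 5 were higher and 2 lower (70%, median 0.70). PGR itself is 1 of the 5, and with XBP1 (log2 fold change 0.86, SE 0.10) it had the smallest adjusted p among the higher ones. CXCL12 had 0 counts in DKO and 92 in WT, at least 30.1-fold lower, and IGFBP4 fell (log2 fold change -3.92, SE 0.29). Without WT replicate 2, 3 of these targets were higher, and without DKO replicate 3 there were 5 higher and 4 lower (90%, against 74.6% of all genes).

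Of 7 tested retinoic acid targets, 2 were higher and 3 lower (71.4%, median -0.71). Without DKO replicate 3 there were 2 higher and 5 lower (100%, against 74.6% of all genes). The transglutaminase gene TGM2 fell to 4.74 ± 0.815 FPKM in DKO, against 24.6 ± 1.18 FPKM in WT. CYP26B1, which degrades retinoic acid (log2 fold change 3.01, SE 0.46), and the retinol transporter gene STRA6 (log2 fold change 2.04, SE 0.44) rose but stayed at 0.34 ± 0.131 and 0.78 ± 0.354 FPKM in DKO. Of 5 tested targets of the vitamin D and thyroid hormone receptors, 1 was higher and 2 lower (60%, median 0.03). CYP24A1, the vitamin D hydroxylase induced by VDR, fell to 2.41 ± 0.408 FPKM in DKO, against 4.68 ± 0.824 FPKM in WT (log2 fold change -0.92, SE 0.18), and HR is the other lower gene. THRSP rose (log2 fold change 1.53, SE 0.46, edgeR adjusted p = 0.0303), and its call was lost without DKO replicate 1 (edgeR adjusted p = 0.0654) and without any WT sample (0.0538 to 0.102).

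Of 7 tested LXR targets, 1 was higher and 3 lower (57.1%, median -0.07), NR1H3 being 1 of the 3. The cholesterol exporter gene ABCA1 fell to 0.777 ± 0.0651 FPKM in DKO, against 2.17 ± 0.169 FPKM in WT (log2 fold change -1.48, SE 0.13, edgeR adjusted p = 0.000153). ABCG1 fell (log2 fold change -0.93, SE 0.28, edgeR adjusted p = 0.0331) and SMPDL3A rose (log2 fold change 0.79, SE 0.19, edgeR adjusted p = 0.0127). ABCG1 was not called without DKO replicate 1, WT replicate 1 or WT replicate 3 (edgeR adjusted p = 0.085 to 0.119), nor SMPDL3A without WT replicate 2 or 3 (0.0608 and 0.0523). Without DKO replicate 3 there were 2 LXR targets higher and 4 lower (85.7%, against 74.6% of all genes). Of 8 tested PPAR targets, 2 were higher and 2 lower (50%, median 0.08). CPT1A, the gate of mitochondrial fatty acid oxidation, rose to 5.19 ± 0.35 FPKM in DKO, against 1.48 ± 0.207 FPKM in WT (log2 fold change 1.82, SE 0.15). ACADVL rose (log2 fold change 0.62, SE 0.15) and the lipid droplet gene PLIN2 fell (log2 fold change -0.63, SE 0.17). Without any 1 WT sample ACADVL (edgeR adjusted p = 0.0547 to 0.0612) and PLIN2 (0.0515 to 0.079) lost their calls, and PLIN2 also without DKO replicate 1 (0.0613). The adipocyte target FABP4 was not called with all samples (log2 fold change 0.44, SE 0.40) and was higher without DKO replicate 3 (0.74, edgeR adjusted p = 0.0203).

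Of 14 tested clock genes tied to the REV-ERBs and RORs, 3 were higher and 2 lower (35.7%, median 0.16). Without DKO replicate 3 there were 6 higher and 2 lower (57.1%, against 74.6% of all genes). ARNTL (BMAL1), the classical target repressed by REV-ERBs, averaged 4.61 ± 0.732 FPKM in DKO and 4.79 ± 0.266 FPKM in WT and was not called. CLOCK was not called with all samples (log2 fold change 0.08, SE 0.24) and was higher without DKO replicate 3 (0.32, edgeR adjusted p = 1.18e-06). Its paralogue NPAS2 rose (log2 fold change 0.61, SE 0.10). BHLHE40 (DEC1) fell to 17.3 ± 1.55 FPKM in DKO, against 50.8 ± 1.42 FPKM in WT (log2 fold change -1.51, SE 0.12), DBP fell (log2 fold change -1.79, SE 0.21), and HLF rose (log2 fold change 1.92, SE 0.40) at 0.307 ± 0.12 FPKM in DKO.

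Among 14 tested enzymes and transporters of receptor ligands, 6 were higher and 5 lower (78.6%, median 0.32). Without WT replicate 1 or 2 there were 2 higher and without WT replicate 3 there were 3. Without DKO replicate 3 there were 7 higher and 5 lower (85.7%, against 74.6% of all genes). ALDH1A1, which makes retinoic acid, fell to 0.1 ± 0.01 FPKM in DKO, against 48.4 ± 0.457 FPKM in WT (log2 fold change -8.86, SE 0.16, edgeR adjusted p = 2.09e-06), with 9 counts in DKO and 4567 in WT. ALDH1A3 fell (log2 fold change -3.21, SE 0.40), as did the steroid reductase gene SRD5A1 (log2 fold change -1.19, SE 0.16).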

How the data were processed

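Per the labels' protocols, the RNA of 3 DKO and 3 WT samples went into libraries of a BGI dual-mode mRNA kit. The authors deposited a table of estimated counts and of FPKM values per gene and sample, per the file headers. The submitters' processing notes list HISAT and Bowtie2 without versions. The program that counted, its strand setting and the build: not given in the sources used here. Columns of other samples (9) were not used.

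Estimated counts (5.8 to 6.54% of them not whole in a sample) were rounded, filtered by group (edgeR's filterByExpr, minimum count 10) and scaled by TMM. The test was edgeR's quasi-likelihood one (edgeR 4.0.16, R 4.3.3), adjusted by Benjamini-Hochberg over 13094 genes at a threshold of 0.05. An SE was taken as the size of the fitted log2 change over the square root of its F. Permutation tests used scipy 1.17.1. The alternatives were limma 3.58.1 on log2(FPKM + 1) and log2(FPKM + 0.1), DESeq2 1.42.0, DESeq2-type size factors, no filter, a replicate block and leaving out each sample.

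The fits were checked on simulated data with known changes. There edgeR recovered 6% of the 1.5-fold, 58% of the 2-fold and 98% of the 4-fold changes. A gene not called is therefore not shown to be unchanged. DESeq2 made a larger share of false calls than edgeR. The simulation changed far fewer genes than were called in these data, so its shares of false calls do not carry over to them. The members and lists were chosen with earlier results of these data known. Every receptor is accounted for, and up to 4 called genes with the smallest adjusted p are named per list, except a few that are not reported here. Other list genes and neighbours were named after their values were seen. RefSeq (mChlSab1.0.hap1, 39 of 39 receptors matched) gave only the order and overlap of genes. Sequences are not shown.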

Additional observations from a re-analysis of the deposited data

How the results depend on the processing

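The 12 receptor calls kept their direction and their side of the threshold under every alternative run, which were the other normalization, no filter, DESeq2, both limma fits, the replicate block and each sample left out. Leaving out 1 sample gave 12 to 22 called receptors, 7 to 10 higher and 5 to 12 lower, and 4266 to 9880 called genes in all, 2105 to 4770 higher and 2146 to 5110 lower; the upper ends came without DKO replicate 3, and the cause was not tested. Of the 17 receptors not called, NR1D2 was called by DESeq2 (-0.94, adjusted p = 0.0159) and NR2F6 by both limma fits (adjusted p = 0.0429 and 0.0428). DESeq2 made the larger share of false calls on simulated data, but how far that share holds for these data was not tested. Receptors at low FPKM in a group had smaller changes on the log2(FPKM + 1) scale, such as 0.22 for NR4A3 and 3.38 for PGR. Without the filter 16 of 39 receptors were called, against 35.6% of all genes. Between 4 and 6 low-count receptors had groups without overlap when 1 sample was left out. With the replicate block 12 receptors and 4485 genes were called, with 4 coactivators, 3 chaperones and 3 ligand genes higher, but same-numbered samples did not deviate together (correlations 0.0215, -0.284 and -0.29), so the numbers were not taken as pairs. Depth limits the 17 receptors under 1 FPKM.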
